A study of Mus musculus with 8 samples.

Results

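The loci of the 4 Egr genes (Egr1, Egr2, Egr3 and Egr4) were examined in Sono-seq libraries of the mouse hippocampus. The members were chosen by position: every deposited region that overlapped a window of 30 to 40 kb set around each gene. This rule found 8 regions out of 11304, with 1 region at Egr1, 3 at Egr2, 2 at Egr3 and 2 at Egr4. Sono-seq sequences sonicated, crosslinked chromatin without an antibody, so that reads pile up where chromatin breaks readily, as it does at open promoters and other regulatory sites. The libraries came from 8 adult C57BL/6J males aged 2 months, with no transgene or other allele named. The 4 conditioned mice were dissected 30 min after contextual fear conditioning, in which a single foot shock of 1.5 mA for 2 s ended a stay of 2.5 min in a chamber. The 4 control mice had the same 3 days of handling, were not trained, and were dissected at the matching time of day. All hippocampi were fixed in 2% paraformaldehyde, and fragments near 300 bp were cut from a gel for both groups. The tissue was bulk hippocampus, so a smaller share of cells with an open site and less signal from each such cell cannot be told apart.

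The Egr genes encode zinc finger transcription factors that bind a GC-rich site in DNA and are switched on within minutes as immediate early genes. In neurons their transcription follows synaptic activity through the serum response factor, which binds CArG boxes with its Ets partners, and through CREB, which binds the cyclic AMP response element (CRE). Egr1, also called Zif268, is a widely used marker of recently active hippocampal neurons and is needed for lasting synaptic potentiation. Egr2, also called Krox20, patterns the hindbrain and drives myelination by Schwann cells. Egr3 is induced by activity more slowly than Egr1 and is needed for muscle spindles. Egr4 is the most divergent member, with known roles in male fertility and in neurons.

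Upstream sequences of Egr2 and Egr4 are shown for the CArG and CRE sites through which these genes are known to be induced. They were read from RefSeq on GRCm38.p6, which is not the build of the libraries (mm9), so no position in them can be set against a region. The search covered only 2 of the 4 genes, with 5 annotated starts for Egr2 and 1 for Egr4. Egr1 and Egr3 were left out of it, so nothing is said here of their upstream motifs. The motifs searched, on both strands of the 250 bases before each start, were the CArG box, the CRE TGACGTCA, its core TGACG, the EGR site GCGTGGGCG, the Ets core CCGGAA and the TATA box TATAAA. A CRE always holds its core, so those counts overlap. Capitals mark CArG boxes and TGACG cores, the latter read as CGTCA because they lie on the other strand.
Egr4, chr6:85513590-85513839, minus strand: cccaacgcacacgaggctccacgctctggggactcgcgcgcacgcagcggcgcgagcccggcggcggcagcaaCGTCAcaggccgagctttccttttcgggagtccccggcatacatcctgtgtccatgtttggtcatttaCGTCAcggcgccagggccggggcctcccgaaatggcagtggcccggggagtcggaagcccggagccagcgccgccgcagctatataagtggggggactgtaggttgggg
Egr2 stretch A, chr10:67537491-67537520, plus strand: tctCCTTTTTTGGaaagtctcggagaaccg
Egr2 stretch B, chr10:67537794-67537823, plus strand: agtCCATATATGGgcagcgaCGTCAcgggt

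The Egr4 sequence held 2 TGACG cores, at 177 to 173 and 109 to 105 bases before the start, and no exact match to the other motifs. It holds the letters tatataag near the start, which the exact string TATAAA does not match, so a TATA box in a looser form was not searched for. A CArG box was present before 4 of the 5 Egr2 starts, a motif found in 1.47% of all 32851 promoters in the table. Stretch A holds the box that lies 72 to 63 bases before the Egr2 start numbered 2 along the chromosome. Stretch B holds the box shared by the starts numbered 3, 4 and 5, followed by a TGACG core. The TGACG core was present in 17.8% of all promoters, the full CRE in 1.55%, the Ets core in 12.0%, the TATA box in 12.4% and the EGR site in 0.536%. The Egr4 sequence was 68.0% G and C, and the 5 Egr2 sequences ranged from 54.0% to 71.2%, beside a median of 52.4% over the table. A match describes the letters only.

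On mm9 the windows were chromosome 18, 35005000 to 35040000 for Egr1; chromosome 10, 66985000 to 67025000 for Egr2; chromosome 14, 70460000 to 70500000 for Egr3; and chromosome 6, 85445000 to 85475000 for Egr4. Exon, intron and promoter positions on mm9 were not analysed here, and marker genes of hippocampal cell types were not analysed here for the same reason. In the GRCm38.p6 gene table the protein-coding neighbours were Reep2 and Etf1 for Egr1, Nrbf2 and Ado for Egr2, Pebp4 and Bin3 for Egr3, and Fbxo41 and Alms1 for Egr4. The 4 windows span 145 kb and held 55.2 regions per Mb, against 4.68 per Mb over the autosomes. The windows were chosen around genes, so this density is a description.

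The 8 regions differed widely in length and in how many libraries carried them. A carrier is a library with a peak whose z score, the authors' own peak height, was at least 30 in the region. The Egr1 region (35019931 to 35021481, 1550 bp) had 6 carriers, 3 in each group. At Egr2, region 1 (66997408 to 66999251, 1843 bp) had 5 carriers, and region 2 (66999329 to 67000579, 1250 bp), 78 bp further on, had 6. Egr2 region 3 (67010729 to 67012033, 1304 bp) was carried by all 8 libraries, as were 4.96% of all regions. Egr3 region 1 (70474627 to 70475162, 535 bp) had 6 carriers, 2 control and 4 conditioned. Egr3 region 2 (70476563 to 70480413, 3850 bp) had 4 carriers, 1 control and 3 conditioned, and was wider than 99.8% of regions. At Egr4, region 1 (85452543 to 85453193, 650 bp) had 6 carriers, 2 control and 4 conditioned. Egr4 region 2 (85461191 to 85463991, 2800 bp) had 7 carriers, with control replicate 1 missing. The deposited mean z of the 2 Egr4 regions, 91.4 and 91.8, lay above 97.4% and 97.5% of all regions, whereas Egr1 (54.8), Egr2 region 2 (54.2) and Egr3 region 2 (54.4) lay below the median of 58.9.

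The libraries differed in depth and in peak height, which touches every value below. Total counts over all regions ran from 36786183 to 66135693 in the controls and from 36857885 to 83233550 in the conditioned group. Control replicates 1 and 3 stood apart: their median region held 142 and 115 reads and their median highest z was 20.9 and 20.1, while the other 6 libraries lay between 277 and 1069 reads and between 33.9 and 84.9. TMM factors, which set the bulk of regions equal between libraries, ranged from 0.332 to 2.01. Counts are given per 1000000 reads of the scaled library size (CPM). After this scaling the median region stood at 6.03 to 6.47 CPM in every library. Values per library are given in the order of replicates 1 to 4 throughout. At the Egr regions the raw counts ran from 24 to 6050. No molecular identifiers are named for these libraries, so reads may repeat molecules and counting error is only part of the error of a count.

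No Egr region passed the test between groups. With edgeR's quasi-likelihood test on all 11304 regions, 0 of the 8 Egr regions had an adjusted p below 0.05, and 0% of all regions did. The smallest adjusted p over all regions was 0.605. At an unadjusted p below 0.05, 1 of the 8 Egr regions passed, beside 7.79% of all regions. The log2 fold change, conditioned minus control, was above 0 at 5 of the 8 Egr regions, beside 46.4% of all regions. Its median was 0.31 at the Egr regions and -0.05 over all regions. In 2 of the 8, every conditioned library lay above every control library, beside 1.5% of all regions. These 2 were Egr4 region 2 and Egr3 region 1. DESeq2's Wald test also called 0 of the 8, with 40 calls over the 11138 regions it gave an adjusted p, 2 of them higher after conditioning.

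**Figure D1:**
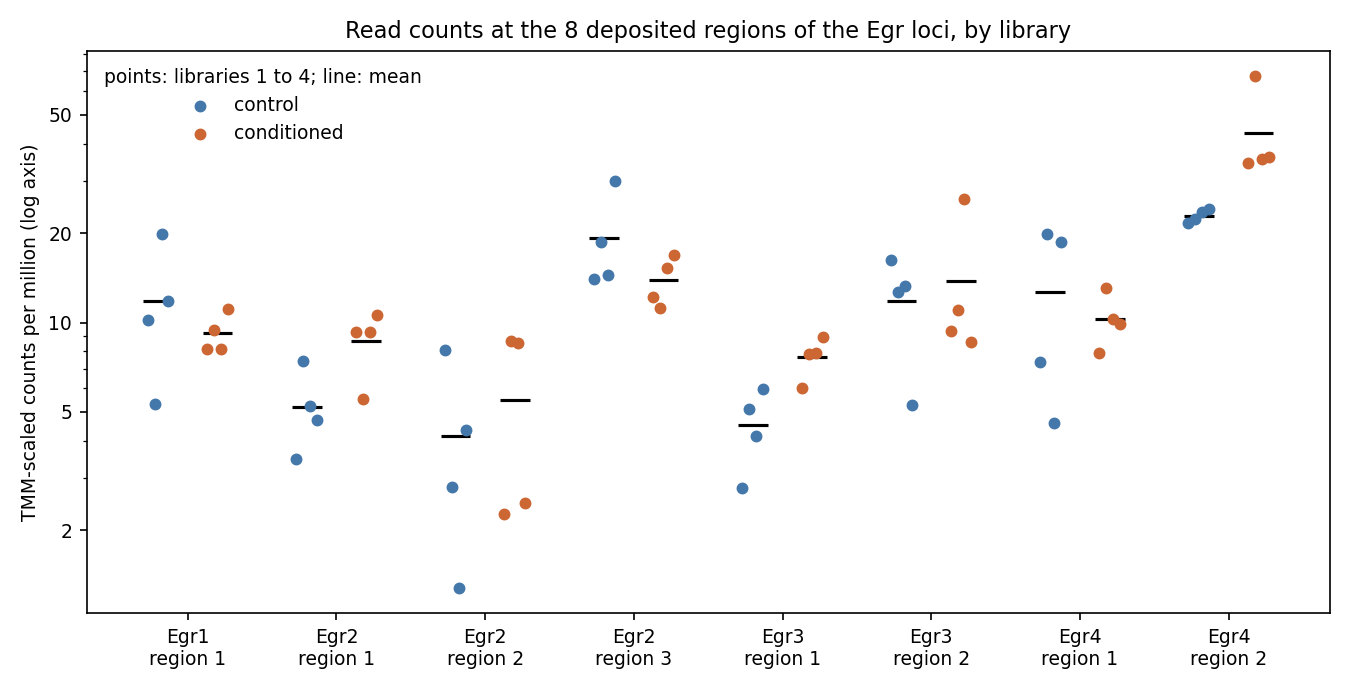
TMM-scaled CPM on a log axis at each of the 8 Egr regions, with 1 point per library (blue control, orange conditioned, libraries 1 to 4 from left to right in each group) and the group mean as a line. The points of the groups overlap except at Egr3 region 1 and Egr4 region 2, where all 4 conditioned libraries lie above all 4 controls.

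Egr1, the member most used to mark active neurons, had groups that overlapped. Its region held 10.2, 5.31, 19.9 and 11.8 CPM in the controls. The conditioned libraries held 8.14, 9.40, 8.13 and 11.1 CPM, all inside the control range. The highest and the lowest library were both controls, replicate 3 and replicate 2. Egr1 had a log2 fold change of -0.35 (SE 0.43; edgeR adjusted p = 0.897). It was -0.0082 without control replicate 3 and -0.60 without control replicate 2, and -0.021 with voom. It was 0.091 when only control replicates 2 and 4 were kept, a choice made after seeing the data.

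Egr2, the hindbrain and myelination factor, had regions that leaned different ways. Region 1 held 3.46, 7.44, 5.23 and 4.69 CPM in the controls and 9.29, 5.52, 9.28 and 10.6 CPM in the conditioned libraries. Conditioned replicates 1, 3 and 4 lay above every control, and replicate 2 lay among them. The log2 fold change of region 1 was 0.73 (SE 0.43; edgeR adjusted p = 0.720). Region 3, the site carried in all libraries, held 14.0, 18.7, 14.5 and 30.0 CPM in the controls against 12.2, 11.2, 15.2 and 16.9 CPM after conditioning. The controls thus reached higher, through replicates 2 and 4, but the groups overlapped (log2 fold change -0.48, SE 0.38; edgeR adjusted p = 0.807). Without control replicate 4 the value was -0.21. Region 2 scattered in both groups, from 1.28 to 8.11 CPM in the controls and from 2.26 to 8.68 CPM after conditioning. Its log2 fold change of 0.41 was smaller than its SE of 0.63, and ranged from 0.085 (without control replicate 3) to 0.95 (without control replicate 1). Summed over the 3 regions, the Egr2 locus held 28.6 ± 7.65 CPM (SD, n = 4) in controls and 28.0 ± 4.27 CPM (SD, n = 4) after conditioning.

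Egr3, the later activity-induced member, had a narrow region in which the groups did not overlap. Region 1 held 2.78, 5.12, 4.16 and 5.99 CPM in the controls and 6.00, 7.81, 7.88 and 8.95 CPM in the conditioned libraries. The gap between the groups was thin, since the highest control and the lowest conditioned library were almost equal. The means were 4.51 ± 1.38 and 7.66 ± 1.23 CPM (SD, n = 4 each). The log2 fold change was 0.76 (SE 0.44) and did not pass the test (edgeR adjusted p = 0.711). With control replicates 2 and 4 only, its log2 fold change was 0.45. Region 2, the widest of the 8, held 16.2, 12.7, 13.2 and 5.28 CPM in the controls and 9.35, 11.0, 26.1 and 8.57 CPM after conditioning. Conditioned replicate 3 was the highest by a wide margin and control replicate 4 the lowest. Region 2 had a log2 fold change of 0.22 (SE 0.47; edgeR adjusted p = 0.955). It was -0.29 without conditioned replicate 3 and -0.054 without control replicate 4.

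Egr4 held the region with the smallest p of the family and the most reads. Region 2 held 21.6, 22.4, 23.5 and 24.2 CPM in the controls, a narrow range, and 34.4, 67.4, 35.5 and 36.1 CPM in the conditioned libraries. All 4 conditioned libraries lay above all 4 controls, and conditioned replicate 2 lay far above the other 3. The means were 22.9 ± 1.15 and 43.4 ± 16.1 CPM (SD, n = 4 each), 1.89-fold higher after conditioning. The log2 fold change was 0.92 (SE 0.36) and did not pass (edgeR unadjusted p = 0.0231, adjusted p = 0.606). Without conditioned replicate 2 the log2 fold change was 0.62 (edgeR adjusted p = 0.944), and with control replicates 2 and 4 only it was 0.89. With DESeq2's Wald test the adjusted p was 0.345. Over all 8 libraries the region's mean CPM lay above 98.8% of regions. It was also wider than 98.6% of regions, and per kilobase its mean lay above 78.1% of them.

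Egr4 region 1, which starts 8648 bp before region 2, did not share that order. It held 7.34, 19.9, 4.59 and 18.7 CPM in the controls and 7.89, 13.0, 10.3 and 9.88 CPM after conditioning. Control replicates 2 and 4 were the highest libraries, and control replicates 1 and 3 the lowest. These pairs also differ in median region count and peak height, though not in total count, and the part of this in the spread was not tested. The log2 fold change was -0.30 (SE 0.47; edgeR adjusted p = 0.925) and -0.92 with control replicates 2 and 4 only. Leaving out 1 library at a time moved it between -0.59 (without control replicate 3) and 0.0037 (without control replicate 2).

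Summing the regions of a locus gave 1 value per gene, and none passed. In that edgeR fit 0% of the 11300 rows had an adjusted p below 0.05. The Egr4 sum stood at 35.5 ± 8.10 CPM in controls and 53.6 ± 18.0 CPM after conditioning (SD, n = 4 each). Its log2 fold change was 0.59 (SE 0.37; edgeR adjusted p = 0.739). The groups overlapped, because control replicates 2 and 4 (42.2 and 42.8 CPM) reached conditioned replicate 1 (42.3 CPM). Without conditioned replicate 2 the Egr4 value was 0.33. The Egr3 sum had a log2 fold change of 0.39 (SE 0.38; edgeR adjusted p = 0.858), which was 0.077 without conditioned replicate 3 and 0.22 without control replicate 4. The Egr2 sum had one of -0.03 (SE 0.35; edgeR adjusted p = 0.993). At Egr1, with its lone region, the sum repeats the value given above.

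**Figure D2:**
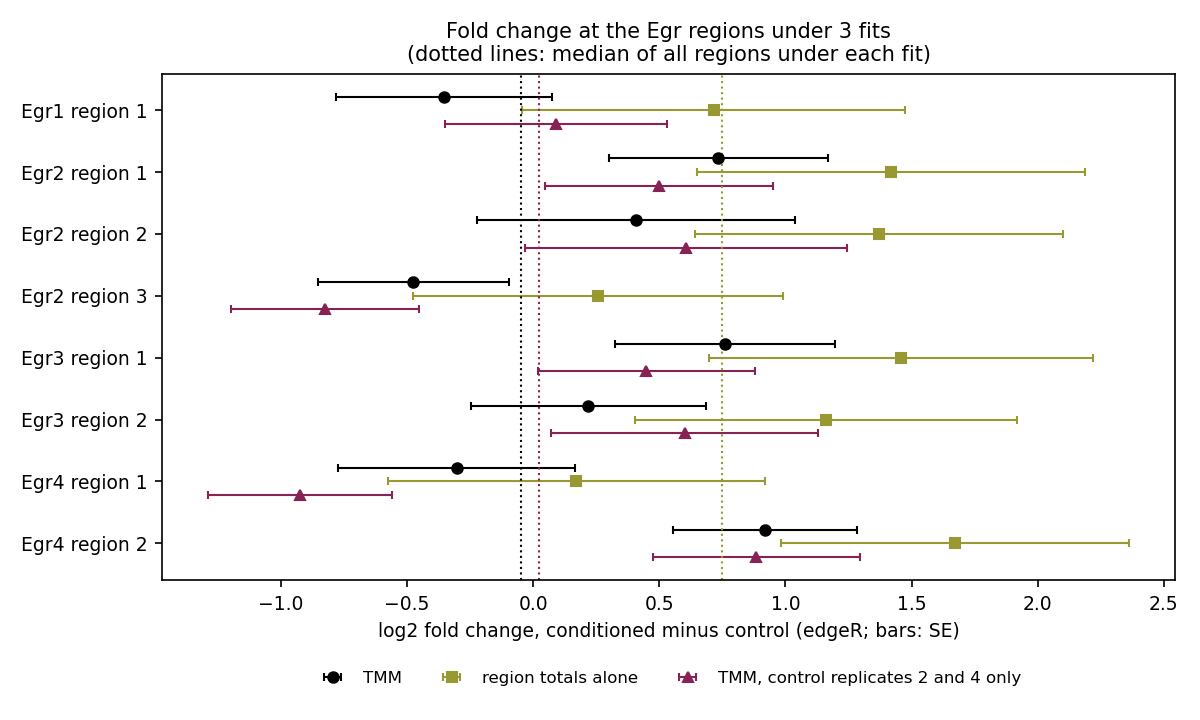
Log2 fold change at each Egr region, conditioned minus control, from edgeR with TMM factors (black circles), with region totals alone (olive squares) and with TMM factors and control replicates 2 and 4 only (purple triangles), with bars for the SE and dotted lines for the median of all regions under each fit. With region totals alone all 8 points lie above 0, together with a median over all regions of 0.75. Egr2 regions 1 and 2, both Egr3 regions and Egr4 region 2 lie to the right of the dotted line in each of the 3 fits.

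The direction of single Egr regions depended on what the libraries were scaled to, while the Egr median was above 0 under each scaling. With region totals alone the median of all regions moved from -0.05 to 0.75, a shift of 0.80, and the Egr median moved from 0.31 to 1.27. All 8 Egr regions were then above 0, and so were 88.5% of all regions. Relative to the median of all regions, the Egr median was 0.36 higher with TMM factors and 0.52 higher with region totals. With TMM factors the median SE of a single region was 0.50, and the 8 Egr regions share loci and libraries. Whether such an offset exceeds the spread between regions was not tested. With DESeq2 size factors, upper-quartile factors and voom, 5 of the 8 were above 0, as with TMM factors. The shares of all regions above 0 in these 3 fits were 43.3%, 52.3% and 51.8%.

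Peak heights, taken from the separate peak lists of the same libraries, gave a readout that is not independent of the counts. For each region and library the highest z of a listed peak was used, and limma was fitted to log2(z + 1) over all 11304 regions. The difference was above 0 at 8 of the 8 Egr regions, but also at 95.2% of all regions. Its median was 0.92 at the Egr regions and 0.84 over all regions. An adjusted p below 0.05 was reached by 0 of the 8 and by 0.00885% of all regions. At an unadjusted p below 0.05, 2 of the 8 passed, beside 16.2% of all regions.

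Egr4 region 2 was the only Egr region whose z did not overlap between groups, beside 6.24% of all regions with every conditioned library above every control. Its highest z was 28.3, 90.1, 41.7 and 72.3 in the controls and 101, 138, 128 and 149 in the conditioned libraries. The difference on the log2(z + 1) scale was 1.26 (SE 0.57; limma adjusted p = 0.297). Egr2 region 1 reached 14.7, 56.0, 23.6 and 41.6 in the controls and 84.9, 29.7, 102 and 120 after conditioning. Conditioned replicate 2 lay among the controls there, and the difference was 1.28 (SE 0.59; limma adjusted p = 0.297). Egr3 region 1 reached 20.9, 57.2, 26.7 and 60.6 in the controls and 62.7, 57.3, 99.4 and 133 after conditioning (difference 1.13, SE 0.59; limma adjusted p = 0.297). Its 2 lowest libraries were again control replicates 1 and 3. The other 5 regions had differences from 0.38 at Egr1 to 1.07 at Egr3 region 2, none with a limma adjusted p below 0.05.

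**Figure D3:**
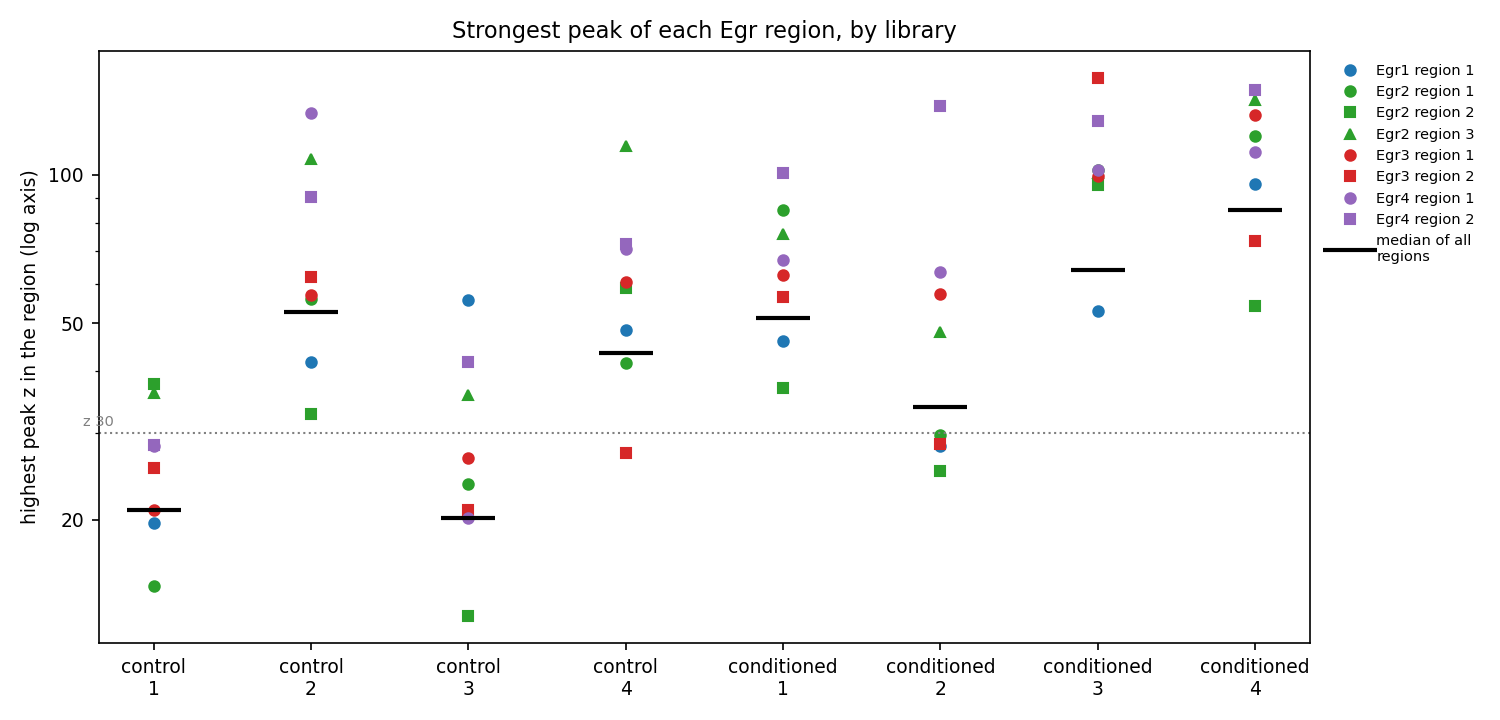
Highest peak z (log axis) in each of the 8 Egr regions by library, with colour for the gene, shape for the region, a black bar for the median over all 11304 regions and a dotted line at z 30. The black bars run from 20.1 to 84.9, control replicates 1 and 3 have the lowest bars, and the Egr points as a set move up and down with them. Single points depart from this, such as Egr1 in control replicate 3 (z 55.9) and Egr4 region 2 in conditioned replicate 2 (z 138).

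As a set, though not at every region, the Egr peaks moved with the height of all peaks in a library. The number of Egr regions that had a carrier peak (z of 30 or more) was 2, 8, 3 and 7 in the controls and 8, 4, 8 and 8 in the conditioned libraries. Over all regions the matching shares were 24.3%, 88.2%, 25.5% and 74.2%, and 92.9%, 58.6%, 95.0% and 97.7%. When log2 z was centred on each library's median, 4 of the 8 Egr differences were above 0, and so were 54.5% of all regions. The 4 above 0 were Egr2 region 1, both Egr3 regions and Egr4 region 2, with values of 0.48, 0.33, 0.27 and 0.46. The part of library-wide peak height in the uncentred differences cannot be told apart from the groups, since the 2 lowest libraries are both controls.

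Most listed peaks of the windows were weak and lay outside the deposited regions, and most strong ones lay inside. Of 457 listed peaks over the 8 libraries, 333 lay outside. Across the 8 libraries the windows held 80 peaks at z of at least 30, of which 68 lay in deposited regions and 12 outside. In the Egr1 window there were 1, 1, 2 and 2 such peaks in the controls and 1, 0, 3 and 1 in the conditioned libraries. The Egr2 window held 2, 3, 3 and 3 in controls and 5, 1, 5 and 5 after conditioning. The Egr3 window held 0, 4, 0 and 1 in controls and 4, 1, 5 and 6 after conditioning. The Egr4 window held 0, 4, 1 and 3 in controls and 3, 3, 3 and 4 after conditioning. In all 4 windows the groups overlapped. The group means differed by 2.75 peaks at Egr3 and by 1.25 at Egr2 and at Egr4. At z of at least 50 the differences were 1 at Egr3 and 1.25 at Egr2 and at Egr4. Over the whole lists there were 13063, 59212, 19835 and 33499 peaks at z of at least 30 in the controls and 36368, 26530, 66552 and 51086 after conditioning, and the groups overlapped there too.

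The strongest peak outside a region in the Egr1 window had a z of 78.2, at position 35015631 in conditioned replicate 3. Only 1 other library listed a peak within 500 bp of it, at z 5.55. Control replicate 4 had another such peak at 35036793, with a z of 72.1, so that the highest Egr1 peak of that library lay outside the deposited region. The strongest outside peaks of the other windows were lower: 44.0 at Egr3 (70465380, conditioned replicate 3), 40.9 at Egr4 (85451591 to 85452191, control replicate 2) and 34.7 at Egr2 (66996901, conditioned replicate 4). Peaks within 500 bp of these were listed by 5, 3 and 2 other libraries, at z of 9.83 or less.

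**Figure D4:**
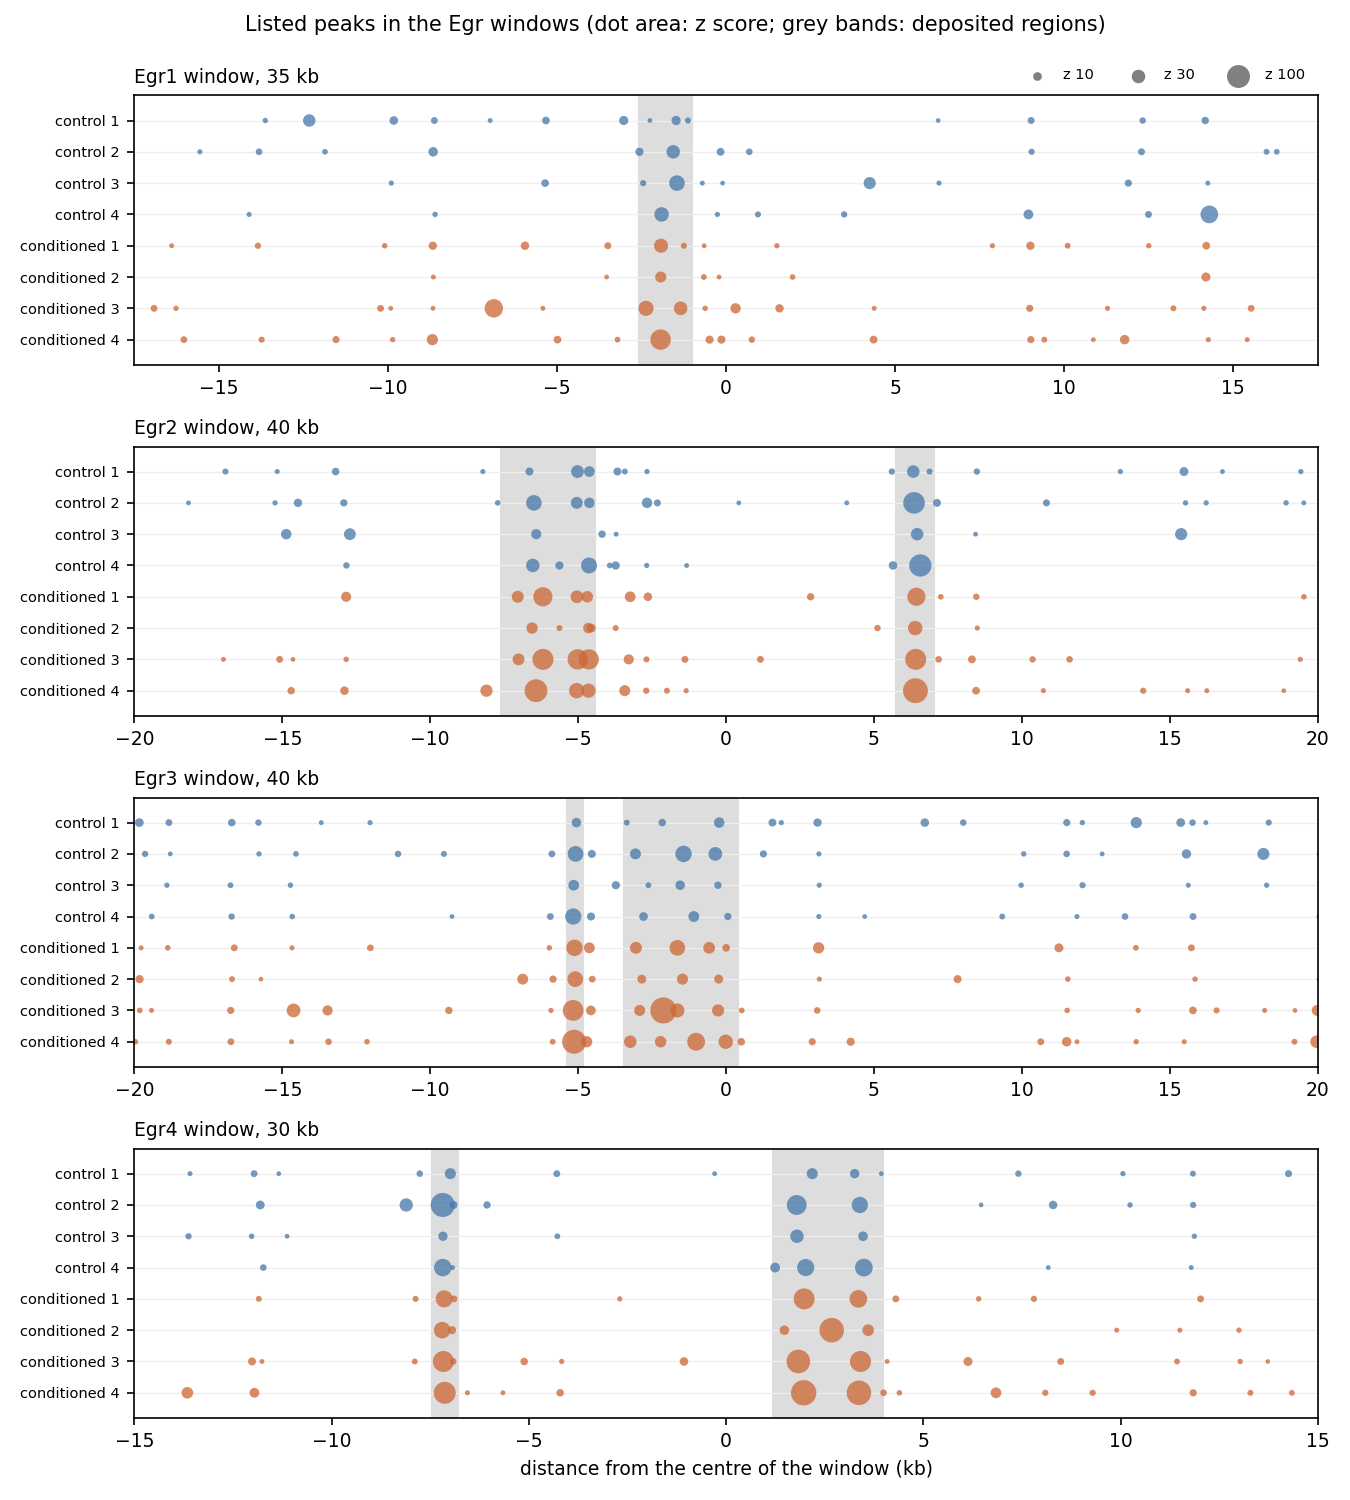
Listed peaks in the 4 Egr windows by library (blue control, orange conditioned), plotted by distance from the centre of the window in kb, with dot area for the z score and grey bands for the deposited regions. Most large dots stack in the bands, and Egr4 region 2 shows a pair of stacks in most libraries. The Egr1 window also has large dots outside its band, at z 78.2 in conditioned replicate 3 and 72.1 in control replicate 4.

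The place of the strongest peak varied between libraries by different amounts in the 8 regions. Its midpoint varied over 112 bp across the 8 libraries at Egr3 region 1, over 207 bp at Egr4 region 1 and over 239 bp at Egr2 region 3. It varied over 457 bp at Egr2 region 1, 857 bp at Egr2 region 2, 917 bp at Egr1, 1702 bp at Egr4 region 2 and 1887 bp at Egr3 region 2. The median over the 10747 regions where every library lists a peak was 283 bp. A peak only had to overlap the region, so its midpoint could lie outside. At Egr2 region 2, 1250 bp long, the midpoint in control replicate 3 lay 1479 bp from the region's start. At Egr4 region 2 the midpoint of the strongest peak lay 600, 606 and 994 bp into the region in control replicates 2, 3 and 1 but 2302 bp in control replicate 4. In conditioned replicates 1, 3 and 4 it lay 788, 642 and 777 bp into the region. Conditioned replicate 2, the library with the most CPM there, had the midpoint of its strongest peak at 1487 bp, between those places.

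Per kilobase, which removes the effect of region length, Egr4 region 1 had the highest mean level of the 8, at 17.6 ± 8.36 CPM per kb (SD over 8 libraries). It exceeded the next region in 7 of 8 libraries, by 4.90 ± 6.38 CPM per kb (SD), a lead within its spread. Egr2 region 3 followed at 12.7 ± 4.54, Egr4 region 2 at 11.8 ± 5.42 and Egr3 region 1 at 11.4 ± 3.87 CPM per kb. These 3 were not ordered beyond their spread: Egr2 region 3 exceeded Egr4 region 2 in 5 of 8 libraries, and Egr4 region 2 exceeded Egr3 region 1 in 4 of 8. By group mean, Egr4 region 1 was highest in both groups, with 19.4 CPM per kb in the controls and 15.8 after conditioning. The order of the next 3 differed by group. The controls had 14.8 CPM per kb at Egr2 region 3, 8.44 at Egr3 region 1 and 8.18 at Egr4 region 2. The conditioned libraries had 10.6, 14.3 and 15.5 CPM per kb at these regions. Egr1 stood at 6.77 ± 2.77 CPM per kb, below Egr3 region 1 in 6 of 8 libraries. The lowest levels were those of Egr2 region 2 at 3.85 ± 2.50, Egr2 region 1 at 3.77 ± 1.40 and Egr3 region 2 at 3.33 ± 1.63 CPM per kb, which also overlapped. Egr4 region 1 lay above 94.7% of all regions per kilobase and Egr1 above 38.0%.

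Because scaling changed the direction of several regions, ratios between regions of the same locus were computed within each library, where any scaling factor cancels. This comparison was added after seeing the data and run with limma over all 4774 pairs of regions that start at most 40 kb apart. At Egr2 the counts of region 1 over region 3 were 0.248, 0.398, 0.362 and 0.157 in the controls and 0.763, 0.495, 0.609 and 0.626 in the conditioned libraries. Every conditioned ratio lay above every control ratio, with means of 0.291 ± 0.110 and 0.623 ± 0.110 (SD, n = 4 each). The log2 difference was 1.17 (SE 0.36), with an adjusted p of 1.00 from limma, so it did not pass. Over all pairs, 0% had an adjusted p below 0.05. This was 1 of 5 Egr pairs without overlap between the groups, beside 2.35% of all pairs.

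At Egr4 the counts of region 1 over region 2 were 0.340, 0.890, 0.195 and 0.773 in the controls and 0.229, 0.193, 0.289 and 0.274 after conditioning. The conditioned ratios kept to a narrow range. Control replicates 2 and 4 lay far above it, control replicate 1 lay above it by less, and control replicate 3 lay within it. The groups thus overlapped through control replicate 3 (log2 difference -0.93, SE 0.51, limma adjusted p = 1.00). The other 3 ratios overlapped widely between the groups, with log2 differences of 0.33 for Egr2 region 1 over region 2, 0.84 for Egr2 region 2 over region 3 and 0.63 for Egr3 region 1 over region 2. A ratio within a library shows unequal counts at its 2 regions and does not say which of them differed.

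**Figure D5:**
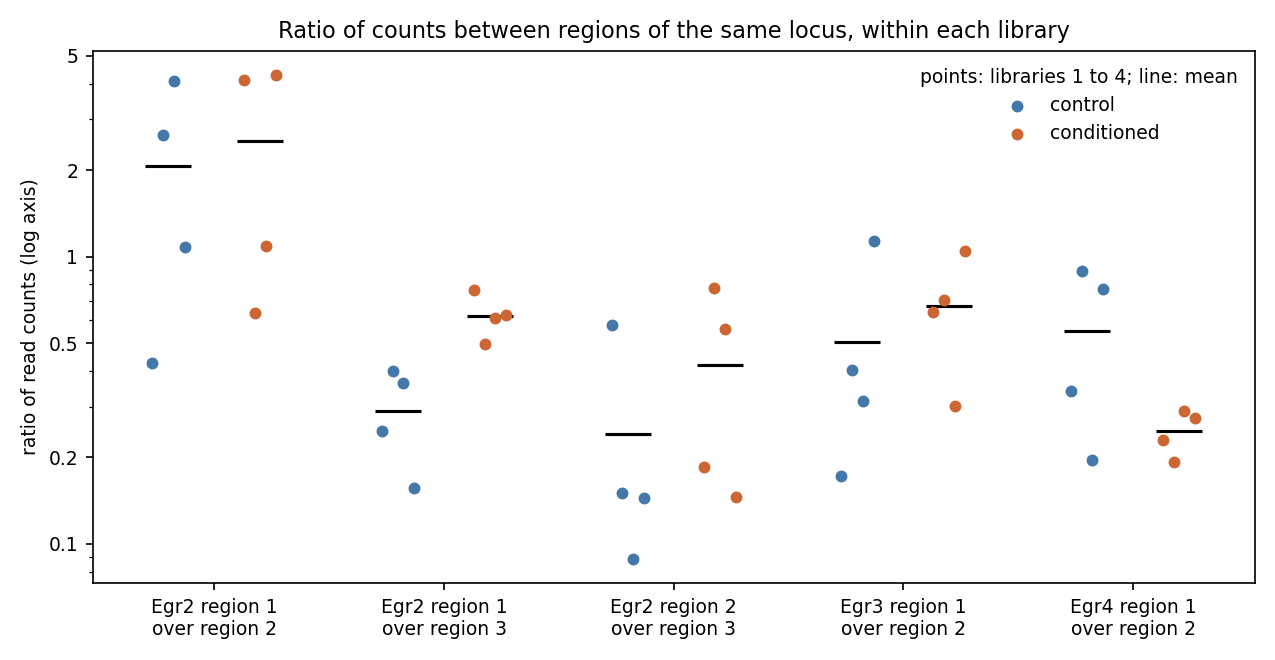
Ratio of read counts between regions of the same Egr locus on a log axis, with 1 point per library (blue control, orange conditioned, libraries 1 to 4 from left to right) and the group mean as a line. The groups are apart at Egr2 region 1 over region 3, with conditioned ratios from 0.495 to 0.763 and control ratios from 0.157 to 0.398, and overlap at the other 4.

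Outside the windows, the region most like each locus across the 8 libraries was found by Pearson's r of log2(CPM + 1). For Egr4 it was chromosome 17, 26055957 to 26057273 (r = 0.983), and for Egr2 chromosome 3, 153636117 to 153636812 (r = 0.978). For Egr1 it was chromosome 10, 79849301 to 79850017 (r = 0.964), and for Egr3 chromosome 13, 55736269 to 55736790 (r = 0.963). Each is the highest r over all regions outside the windows, from 8 points that share libraries and scaling, and is given as a description only. Between the 4 Egr loci themselves r ran from -0.39 (Egr1 and Egr4) to 0.25 (Egr2 and Egr4).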

How the data were processed

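Per the labels' protocols, 1 µg of sonicated chromatin per library was sequenced without immunoprecipitation. Bowtie2 (no version) and mm9 are named, per the submitters' processing notes; the peak caller, counting tool and read filters were not given in the sources used here. The authors deposited raw counts for 11304 regions, a z score per peak in each library, and a mean z score per region with its number of carriers. The scaling of z is not stated. A recount of libraries with an overlapping peak (at least 1 bp) at z of at least 30 matched the deposited carriers in all 11304 regions. Of the count columns, 0 were left unused. Coordinates are printed as deposited, on mm9.

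Counts were fitted over all regions with edgeR 4.0.16 in R 4.3.3 (quasi-likelihood, TMM factors, group as the only term, two-sided, Benjamini-Hochberg over all regions, threshold 0.05); its count filter (minimum 10, total 15) removed 0 regions. SEs are the fold change over the square root of F. Locus sums replaced the rows of a window by their sum. Peak heights and ratios (pseudocount 1) were fitted with limma 3.58.1, with its trend option for peak heights and without it for ratios. The scripts were tested on simulated data. DESeq2 1.42.0, voom, other scalings, windows and thresholds, a replicate block and each library left out were alternatives; ratios and the fits with control replicates 2 and 4 only were added after seeing the data.

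Replicates 1 to 4 carry the label numbers 1, 4, 6 and 9 in both groups. Each library is from a different mouse, so p-values measure the spread between mice, library preparation and days of the protocol together. Every region in a window is named; the strongest outside peak and the most alike region follow fixed rules. The windows, members and motif list were chosen with earlier results of these data known. Gene lists and cell type markers need positions on mm9 and were not analysed here.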

Additional observations from a re-analysis of the deposited data

Results flagged for a closer look

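In groups of 4 libraries, 8 of 80 sets of values had a library farther from its neighbours than Dixon's 95% limit allows, where chance gives about 1 set in 20 for independent continuous values. Of these, 3 are small peak counts with ties, and the Egr4 sum repeats Egr4 region 2, so that rate does not apply to them. At Egr3 region 2, conditioned replicate 3 held 26.1 CPM and the next library 11.0 CPM. At Egr4 region 2, conditioned replicate 2 held 67.4 CPM and the next 36.1 CPM, and its summed Egr4 counts were 80.5 CPM beside 46.0 CPM. The highest z at Egr3 region 2 was 62.1 in control replicate 2 and 27.3 in the next control. In the Egr2 window, control replicate 1 had 2 peaks at z of at least 30 where the other controls had 3, and conditioned replicate 2 had 1 where the others had 5. In the Egr4 window, conditioned replicate 4 had 4 such peaks where the others had 3. The ratio of Egr2 region 2 to region 3 was 0.580 in control replicate 1 and 0.150 in the next control. Whether these libraries differ for a technical or a biological reason was not tested.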

How the results depend on the processing

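Of 456 values recomputed under other settings, 429 were unchanged and 27 changed direction. Unchanged means the same direction and side of the threshold, or the same number of regions called. For differences in peak counts, which have no threshold, it means no change of sign and a value within 1 SD of the main one. The number of Egr regions called was 0 in the counts, the peak heights and the ratios under every setting run. At an unadjusted p below 0.05, edgeR counts gave 1 with TMM factors, beside 7.79% of all regions, and 3 with control replicates 2 and 4 only. The share of all regions in that smaller fit was not computed, so the 3 cannot be set against it. Of these 3, Egr2 region 3 and Egr4 region 1 were lower after conditioning (-0.83 and -0.92) and Egr4 region 2 was higher (0.89). For limma peak heights the count was 2, beside 16.2% of all regions. It was 0 with z centred on the library median and 0 with control replicates 2 and 4 only, where the shares were not computed. The count filter removed 0 regions, so leaving it out tests nothing. Windows 5 kb narrower on each side gave the same locus sums and test nothing either, and both settings are among the unchanged values. With region totals alone the log2 fold change was 0.72 at the Egr1 region and sum, 0.72 for the Egr2 sum, 0.26 at Egr2 region 3 and 0.17 at Egr4 region 1. With upper-quartile factors the Egr2 sum was 0.053. With control replicates 2 and 4 only, the Egr1 region and sum were 0.091 and 0.090, the ratio of Egr3 region 1 to region 2 was -0.14, and the z differences at Egr2 region 3 and Egr4 region 1 were -0.38 and -0.22. Centring z on the library median gave -0.42 at Egr1, -0.22 at Egr2 region 2, -0.38 at Egr2 region 3 and -0.026 at Egr4 region 1. The Egr1 difference in strong peaks, -0.25 at a z minimum of 30, was 1 at a minimum of 10 and 0.25 at 50. Leaving out each library in turn gave -0.17 to 0.13 for the Egr2 sum (0.13, 0.04 and 0.01 without control replicate 4 and conditioned replicates 1 and 2). The same gave -0.59 to 0.0037 for Egr4 region 1, -0.29 to 0.40 for Egr3 region 2 and -0.83 to 0.17 for the Egr1 peak difference. The ratio of Egr2 region 1 to region 2 ranged from -0.27 to 0.85, with -0.27, -0.049 and -0.070 without control replicate 1, conditioned replicate 1 and conditioned replicate 4. For Egr4 region 2 these fits ranged from 0.62 to 1.02. The cause of these changes was not tested.

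With the label number as a replicate block, 0 Egr regions were called, and the log2 fold change was 0.86 at Egr4 region 2 and 0.80 at Egr3 region 1. The labels say that the protocol was repeated over several days, but not whether the label numbers mark those days. The main fits therefore used group only, and the block was an alternative. Same-numbered libraries correlated at 0.17, 0.04, -0.06 and 0.26 in their deviations from the group means. Only the fourth pair correlated best with its own number. So few libraries cannot settle whether same-numbered libraries share a day. Depth limits the low regions most, since Egr2 region 2 rested on 24 reads in control replicate 3.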
